A study of Mus musculus with 12 samples.

Results

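The genes described here are 46 genes of the lysosome and of the vacuolar H+-ATPase (V-ATPase), of 48709 genes listed in each of the 2 deposited expression tables. Gene positions are on mm10 (GRCm38), from GENCODE M21. The genes comprised 16 members of the V-ATPase and 30 other lysosomal genes, and all 46 were found by symbol in both tables. The list was chosen by name because Gpnmb, Atp6v0d2, Pld3 and Cd68 ranked high in the miR184 comparison, to ask whether the other lysosomal genes moved too. The miR184 values of the members are therefore a description: ranks and counts from that fit say how the members stood in it and test nothing, whereas the rule used no value of the miR499 comparison, although its results were known when the members were listed. The cells were hematopoietic stem and progenitor cells, or HSPC, which give rise to all blood lineages. They came from bone marrow of wild-type mice and received miR184, miR499 or a control miRNA by transfection, and RNA was extracted 2 days later. The 12 libraries comprised 3 with miR184, 3 with miR499, 3 controls in the miR184 table (controls 1 to 3) and 3 other controls in the miR499 table (controls 4 to 6). All cells were labelled wild type and sorted, and nothing in the labels ties replicates to different animals or cultures, so the spread behind each p-value may be technical. A mark of unstated meaning is found in the descriptions of controls 4 to 6 and not in those of the miR499 libraries, and what it stands for cannot be told apart from the transfected miRNA. Which arm of each miRNA hairpin was transfected is not given in the sources used here.

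The lysosome is the acidic compartment in which cells digest proteins, glycans, lipids and nucleic acids taken up from outside or delivered by autophagy. The V-ATPase acidifies it: the cytosolic V1 sector hydrolyses ATP and turns a rotor, and the membrane-embedded V0 sector moves protons. Hydrolases work at the low pH this creates, membrane glycoproteins and channels form the boundary, and the MiT/TFE transcription factors switch on many of these genes through CACGTG-containing promoter elements. In bone marrow, lysosomal genes are known for their high expression in macrophages, osteoclasts and granulocyte precursors, and lysosomal activity is known to influence stem cell quiescence.

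The mature sequences of the main arms are shown first because their seeds, bases 2 to 8 in capitals, define the sites that were looked for in the members. They are RefSeq entries on GRCm38.p6. The gene for miR-184-3p lies at chr9:89802263-89802284 on the minus strand and that for miR-499-5p at chr2:155622893-155622913 on the plus strand.
mmu-miR-184-3p: uGGACGGAgaacugauaagggu
mmu-miR-499-5p: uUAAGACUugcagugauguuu

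Sites complementary to these seeds were rare in the 3′ untranslated regions (UTRs) of the members. A match was the complement of bases 2 to 8, or of bases 2 to 7 followed by an A. Those in Ctsb and Lgmn were of the second form only. In the longest UTR annotated in GENCODE M21, a match for miR-184-3p was found in 1 of 46 members (2.17%), against 4.88% of the 9672 tested genes of the miR184 table with such a UTR. A match to the miR-499-5p seed was found in 4 of 46 members (8.70%), against 17.0% of 9103 tested genes of the miR499 table. The matches are printed in capitals with 10 bases on each side, and each is a description of the sequence, not evidence of binding. The first belongs to miR-184-3p and the other 4 to miR-499-5p.
Ctsb: tctcacaaggCCGTCCAagggctaaag
Atp6v0e: gaaagcgggtAGTCTTAgtctaacagc
Ctsc: ttgttactgaAGTCTTAggaaaggccc
Lgmn: aataatggatGTCTTAAaacaaataag
Npc2: gcaaaccttgAGTCTTAgacccactct

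Expression was given as RPKM, read counts scaled by gene length and by the total of the library, so levels of different genes can be set side by side. Recovered totals were 31990355 to 46601798 reads per library, so that a gene 2000 bases long with 3 reads has 0.0322 to 0.0469 RPKM. One library of each treated group stood apart. In miR184 3, 13675 genes had any reads, against 16702 to 17136 in the rest of that table. The RPKM of miR499 3 summed to 391857, against 465018 to 483368 in the rest of the miR499 table. Results are therefore given with and without these libraries. In such bulk samples, fewer cells of a type and less RNA per cell cannot be told apart.

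The 4 genes that chose the list were the members with the lowest p in the miR184 fit, at ranks 1, 5, 6 and 12 of 10372 genes, and the nearest member outside them was Lgmn at rank 16. Gpnmb (chr6:49036546-49070929), a glycoprotein of endolysosomal and melanosomal membranes that is abundant in macrophage-lineage cells, had 66.6, 76.9 and 56.4 RPKM with miR184, against 20.6, 28.8 and 23.0 RPKM in controls 1 to 3. Its mean was 2.76-fold higher with miR184, a log2 change of 1.43 ± 0.15 (SE) on the log2(RPKM + 1) scale used for all changes here, and the groups did not overlap. Atp6v0d2 (chr4:19876841-19922605), the d2 isoform of the V0 stalk subunit and a gene best known from osteoclasts, had 1.88, 1.65 and 2.63 RPKM with miR184, against 0.466, 0.622 and 0.263 RPKM in the controls. These levels rest on 220, 176 and 308 reads with miR184 and on 59, 77 and 31 reads in the controls. The ratio of its means was 4.56, whereas its log2 change was 1.07 ± 0.16, since adding 1 to the RPKM shrinks the change of so low a gene; with a pseudocount of 0.1 the change was 2.0.

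Pld3 (chr7:27532000-27553218), an endolysosomal exonuclease of single-stranded nucleic acids, had 20.1, 20.1 and 23.8 RPKM with miR184, against 14.8, 15.2 and 14.6 RPKM in its controls. Its log2 change was 0.49 ± 0.08, and every miR184 library lay above every control. Cd68 (chr11:69664213-69666153), a lysosomal membrane glycoprotein widely used as a macrophage marker, had 65.2, 71.8 and 70.4 RPKM with miR184, against 51.8, 50.1 and 56.4 RPKM in the controls, a log2 change of 0.38 ± 0.06. In the miR499 table the same 4 genes did not separate the groups. Gpnmb had 4.65, 5.08 and 22.0 RPKM with miR499, against 2.81, 13.4 and 8.19 RPKM in controls 4 to 6. Here miR499 3 was the highest of the 6 libraries and control 4 the lowest. Cd68 had 62.3, 86.8 and 55.8 RPKM with miR499, against 70.6, 93.6 and 78.2 RPKM in controls 4 to 6, and Pld3 had 7.34, 8.20 and 13.2 RPKM, against 9.81, 10.6 and 10.3 RPKM. For Pld3, miR499 1 and 2 lay below the controls and miR499 3 above them. Atp6v0d2 stayed below 1 RPKM throughout, at 0.231, 0.399 and 0.670 RPKM with miR499 and 0.0411, 0.517 and 0.322 RPKM in controls 4 to 6, and did not reach the mean of 1 RPKM required for the test.

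**Figure D1:**
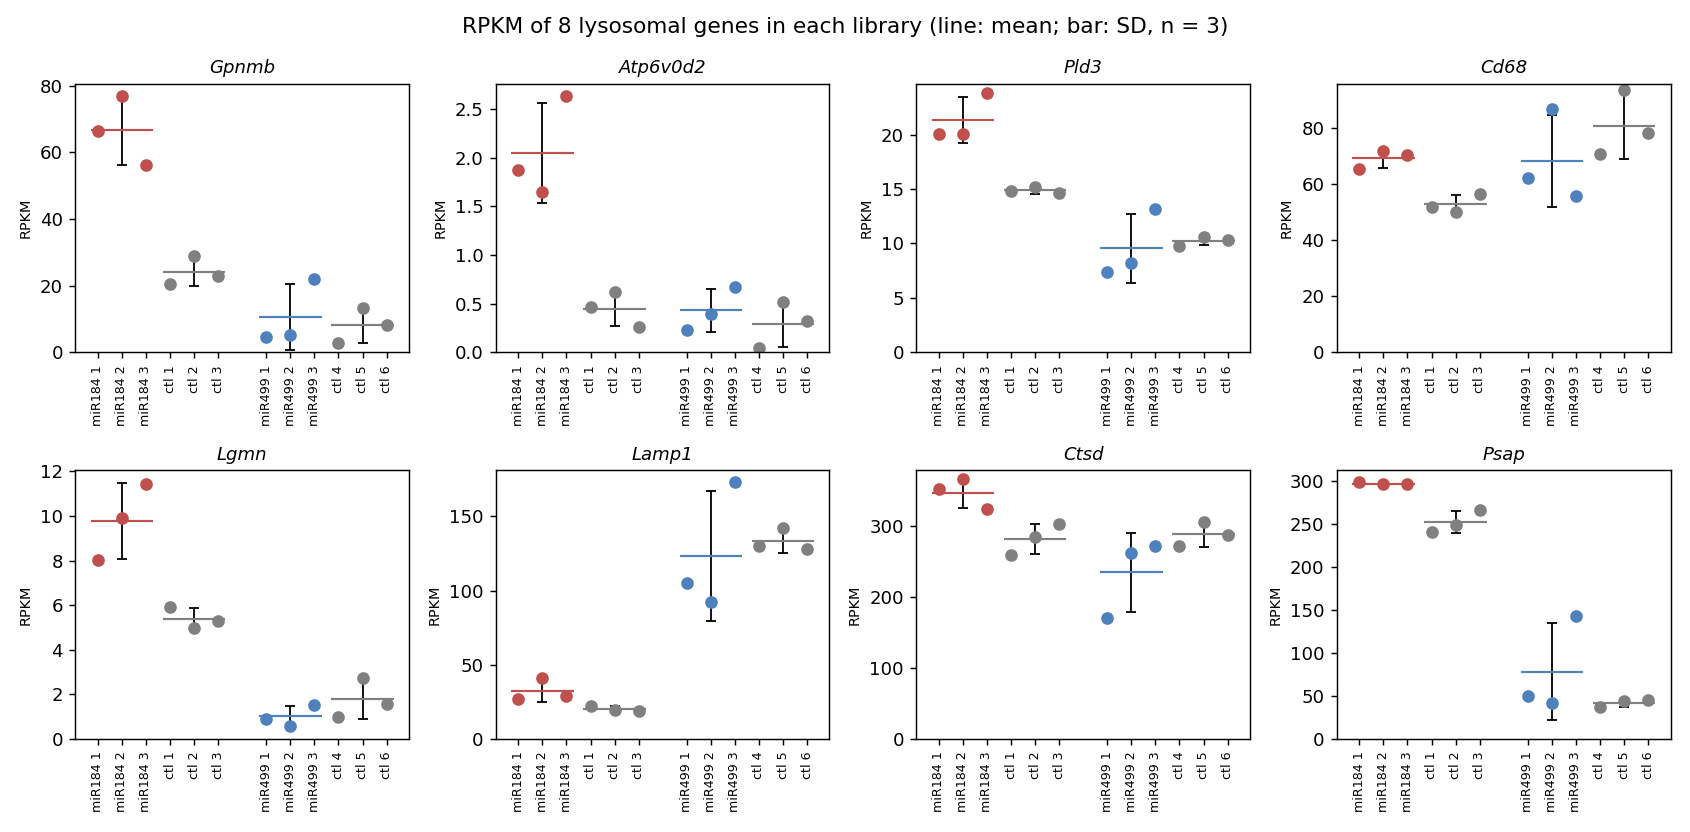
RPKM (linear y axes) of 8 lysosomal genes in each library, with miR184 in red, miR499 in blue and controls in grey; lines are means and bars the SD of 3 libraries. The miR184 points lie above controls 1 to 3 for all 8 genes, which were picked for this, whereas miR499 3 lies apart from miR499 1 and 2 for Gpnmb, Pld3, Lamp1 and Psap.

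Across all 46 members, the differences with miR184 were mostly small and leaned upward. Of the 46 members, 31 had a log2 change above 0, against 50.6% of the 10372 genes tested, and the median change was 0.04, against 0.0022 over all genes. No gene of the table passed an adjusted p of 0.05 in limma, a share of 0%, and the smallest adjusted p of the table was 0.118. At an unadjusted p under 0.05 there were 11 members higher (background 3.63%) and 0 lower (background 0.954%). All 3 miR184 libraries lay above all 3 controls in 14 members (background 7.30%) and below them in 0 (background 4.41%). Leaving out the 4 genes that chose the list, 27 of 42 members were higher, with 7 at an unadjusted p under 0.05 and 10 without overlap. Because the list was selected on this contrast, nothing is read from these counts. Without miR184 3, 34 of 46 members were higher, 11 had an unadjusted p under 0.05 and the median was 0.06; the shares of all genes passing the adjusted threshold were 0% in either direction, also after median-ratio scaling.

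With miR499 the members leaned the other way. Of 45 members tested, 35 had a log2 change below 0, against 50.9% of the 9815 genes tested, and the median change was −0.23, against −0.0072 over all genes. The gap was smaller among genes with a mean of at least 5 RPKM. There the median was −0.23 for 43 members and −0.13 for all 5831 genes. In limma with Benjamini-Hochberg adjustment, 0% of all genes passed an adjusted p of 0.05, so no member did; the smallest adjusted p was 0.491, and 992 genes had an unadjusted p under 0.05, or 967 by limma voom on recovered reads, which also passed 0. At an unadjusted p under 0.05 there were 7 members lower (background 5.23%) and 1 higher (background 4.88%). All miR499 libraries lay below all controls in 11 members (background 12.8%) and above them in 2 (background 11.4%). As shares of 45 members, the counts of lower members exceeded those over all genes, and the counts of higher members lay under them.

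The library miR499 3 lay at one end of its table in most members, as the highest of the 6 libraries in 16 (34.8%) and the lowest in 17 (37.0%), against 51.0% and 26.7% of all genes tested. Without it, 15 of 45 members fell at an adjusted p under 0.05 in limma, against 13.7% of all genes, and 0 rose, against 3.47%. Of the 45 members, 38 were then below 0, against 58.7% of all genes, and their median was −0.25, against −0.06. After median-ratio scaling and without miR499 3, 12 members fell, against 9.27% of all genes, and 0 rose, against 4.75%. These fits set 2 miR499 libraries against 3 controls. Both of these libraries lay below all of controls 4 to 6 in 26 of 46 members (56.5%), against 34.1% of all genes tested, and above them in 3 members, against 17.9%.

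**Figure D2:**
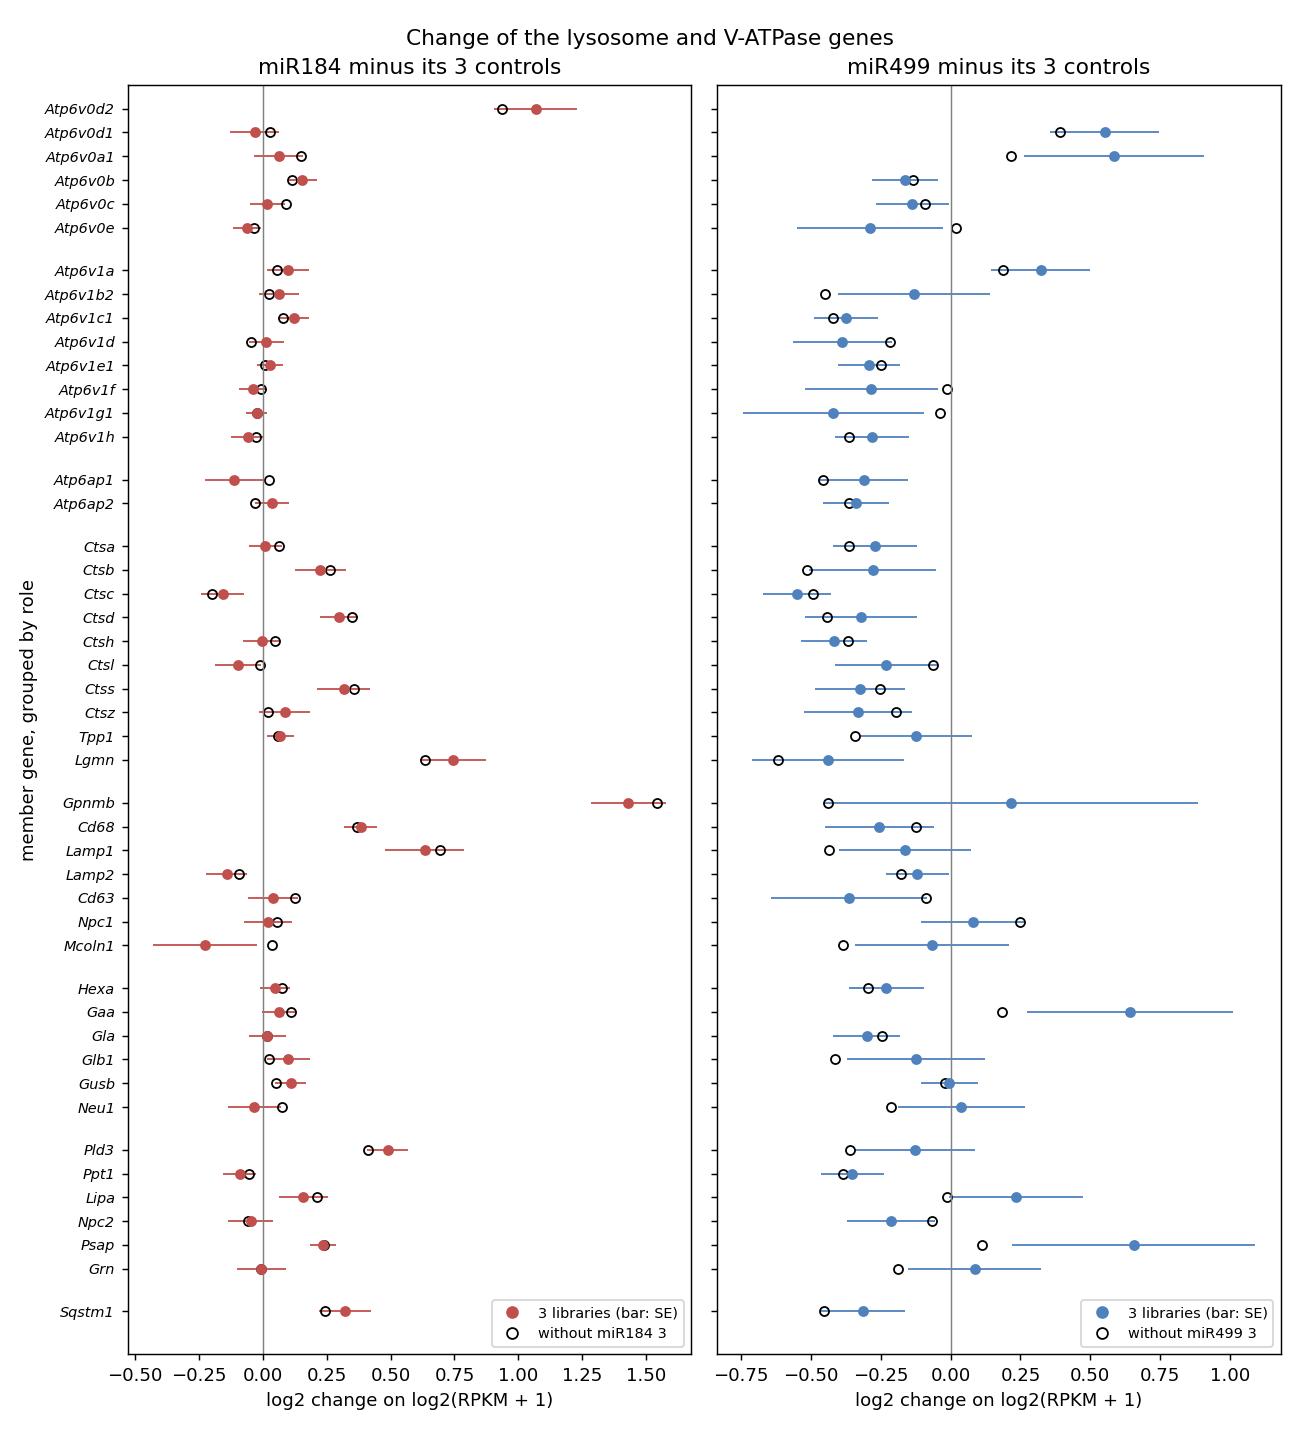
Log2 change of each member (x axis, log2(RPKM + 1) scale) with miR184 (left) and miR499 (right) against the 3 controls of the same table, grouped by role; filled points are the 3 libraries with their SE and open circles the fit without miR184 3 or miR499 3. Most miR184 points sit close to 0, with Gpnmb at 1.43 and Atp6v0d2 at 1.07 farthest out, while 38 of 45 open circles in the miR499 panel lie below 0.

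**Figure D3:**
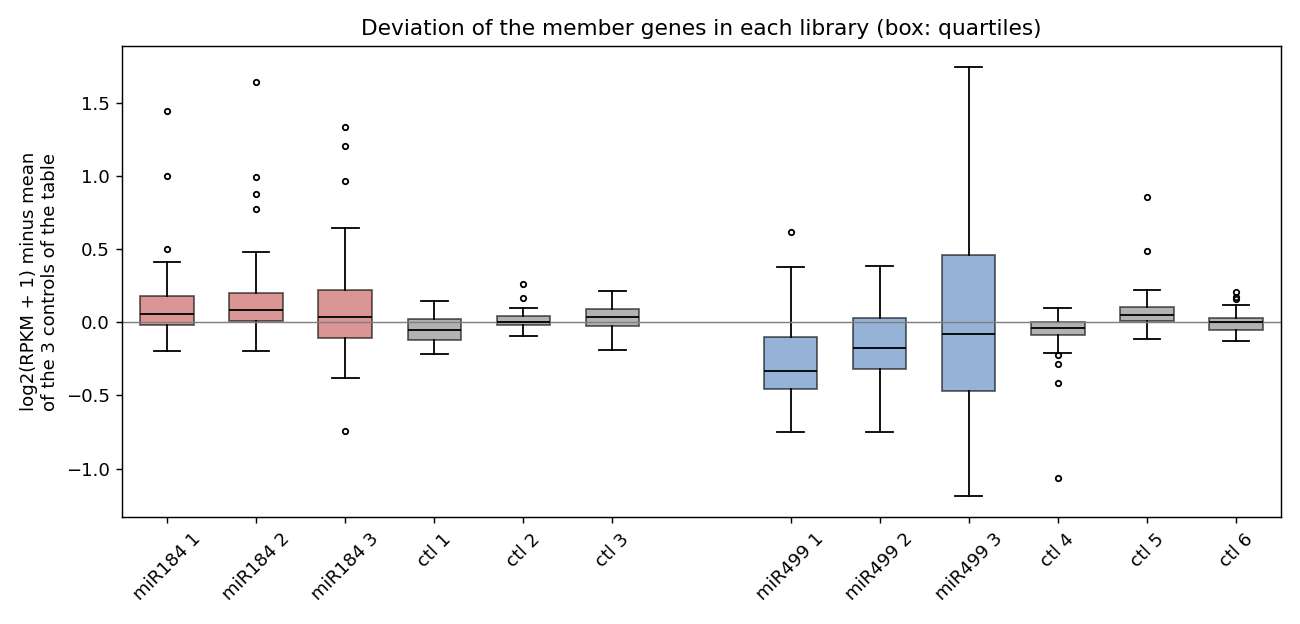
Box plots of the members' deviation in each library, as log2(RPKM + 1) minus the mean of the 3 controls of the same table (y axis); boxes are quartiles and circles members beyond the whiskers. The medians are 0.03 to 0.08 for miR184 against −0.05 to 0.04 for controls 1 to 3, and −0.33 to −0.08 for miR499 against −0.04 to 0.05 for controls 4 to 6, with the widest box in miR499 3.

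The medians over members in single libraries leaned the same way. With miR184 the median deviations were 0.06, 0.08 and 0.03, against −0.05, 0.0023 and 0.04 in controls 1 to 3, so the groups overlapped. With miR499 they were −0.33, −0.17 and −0.08, against −0.04, 0.05 and −0.0009 in controls 4 to 6. All 3 miR499 libraries thus lay below all 3 controls. Over all genes with a mean of at least 5 RPKM, the median change was also below 0, at −0.13. The members took 1.15%, 1.19% and 1.14% of the summed RPKM with miR184, against 1.01%, 1.09% and 1.13% in its controls. They took 0.880%, 1.06% and 0.992% with miR499, against 1.07%, 1.14% and 1.05% in its controls. By share, the groups were apart with miR184 and overlapped with miR499, the reverse of the medians.

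In the V0 sector, Atp6v0d2 and Atp6v0b were the 2 members whose miR184 libraries lay wholly above the controls. The d subunit joins the rotor to the membrane ring, and its d1 form, Atp6v0d1, is made in most tissues. Atp6v0d1 had 23.3, 29.1 and 22.9 RPKM with miR184, against 25.4, 26.5 and 24.7 RPKM in its controls, a log2 change of −0.03 ± 0.10. Atp6v0d2 therefore made up 7.47%, 5.36% and 10.3% of the summed d1 and d2 RPKM with miR184, against 1.80%, 2.29% and 1.05% in controls 1 to 3. Atp6v0b, a proteolipid of the rotor ring, had 100, 104 and 112 RPKM with miR184, against 97.6, 94.5 and 91.6 RPKM. It was the member whose libraries lay wholly above the controls with miR184 and wholly below them with miR499, at 117, 129 and 116 RPKM against 130, 147 and 130 RPKM in controls 4 to 6, although its log2 changes were small, at 0.15 ± 0.06 and −0.16 ± 0.12. Atp6v0c, the main ring proteolipid and the most abundant V0 member, had 172, 181 and 152 RPKM with miR184, against 162, 168 and 167 RPKM. The groups overlapped, as they did for Atp6v0a1 and Atp6v0e. Atp6v0b averaged 105 ± 5.85 RPKM with miR184 and 94.6 ± 3.01 RPKM in its controls (SD, n = 3 each), a larger step in RPKM than that of Atp6v0d2. Summed over the V0 members, levels were 388, 403 and 371 RPKM with miR184, against 379, 376 and 371 RPKM in its controls.

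With miR499, Atp6v0d1 was the member that was higher at an unadjusted p under 0.05. It had 31.2, 22.7 and 37.4 RPKM with miR499, against 19.2, 22.5 and 18.6 RPKM in controls 4 to 6, a log2 change of 0.55 ± 0.20 and an adjusted p of 0.491 in limma. The lowest miR499 library, miR499 2, lay just above the highest control. Atp6v0a1, a large V0 subunit that anchors the stator, had a change of 0.59 ± 0.32 that rested on miR499 3, at 4.17, 5.55 and 11.6 RPKM with miR499 against 4.36, 4.14 and 3.58 RPKM in the controls.

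The 8 V1 members stayed close to their controls with miR184. With miR499, 7 of them had changes below 0 (background 50.9%), none past the adjusted threshold with all libraries. With miR184 their log2 changes ran from −0.06 for Atp6v1h to 0.12 for Atp6v1c1, 5 of them above 0 (background 50.6%), and none separated the groups. Their summed level was 538, 540 and 550 RPKM with miR184, against 542, 535 and 541 RPKM in controls 1 to 3. With miR499, Atp6v1a, the catalytic subunit, was the one above 0 at 0.32 ± 0.18. Atp6v1c1, a stator subunit that holds the sectors together, had 43.1, 49.6 and 50.9 RPKM with miR499, against 60.5, 62.6 and 63.7 RPKM in controls 4 to 6. Atp6v1e1, a peripheral stalk subunit, had 40.1, 44.5 and 38.7 RPKM, against 49.8, 52.0 and 49.6 RPKM. For both genes the groups did not overlap, the log2 changes were −0.38 ± 0.11 and −0.29 ± 0.11, and the adjusted p was 0.491 in limma. Atp6v1f, the most abundant V1 member, had 322, 342 and 188 RPKM with miR499, against 338, 333 and 334 RPKM, so its change of −0.28 ± 0.24 rested on miR499 3. Without that library 3 of 8 V1 members fell in limma, beside 13.7% of all genes. They were Atp6v1c1 by 0.42 on the log2 scale (adjusted p = 0.0145), Atp6v1b2 by 0.45 (adjusted p = 0.0194) and Atp6v1h by 0.36 (adjusted p = 0.0257).

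The accessory proteins Atp6ap1 and Atp6ap2 assist assembly of the V-ATPase, and Atp6ap2 is also known as the prorenin receptor. Atp6ap2 had 102, 119 and 116 RPKM with miR499, against 141, 138 and 147 RPKM in controls 4 to 6, with no overlap and a log2 change of −0.34 ± 0.12 (adjusted p = 0.491, limma). With miR184 it had 142, 140 and 162 RPKM, against 139, 148 and 145 RPKM, and the groups overlapped. Without miR499 3, the log2 level of Atp6ap1 fell by 0.46 (adjusted p = 0.0154, limma) and Atp6ap2 by 0.36 (adjusted p = 0.0247, limma).

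Among the 10 proteases, 7 were higher with miR184 (background 50.6%) and 0 were higher with miR499 (background 49.1%). Lgmn (chr12:102394084-102439813), the asparagine-specific endopeptidase that activates other cathepsins, had the largest protease difference with miR184. It had 8.01, 9.90 and 11.4 RPKM with miR184, against 5.90, 4.98 and 5.29 RPKM in its controls, a log2 change of 0.74 ± 0.13 without overlap. Ctsd, the main aspartic protease of the lysosome, had 352, 366 and 324 RPKM with miR184, against 260, 285 and 303 RPKM. Ctss, a cysteine protease that trims the invariant chain of MHC class II, had 148, 175 and 147 RPKM, against 111, 124 and 142 RPKM. For Ctsd and Ctss the log2 changes were 0.30 ± 0.07 and 0.32 ± 0.10, and in each the lowest miR184 library lay just above the highest control. Ctsb and Tpp1 were also without overlap, with changes of 0.22 ± 0.10 and 0.07 ± 0.05. Ctsz, the most abundant protease, had 325, 351 and 386 RPKM with miR184, against 299, 325 and 379 RPKM, which overlapped, and Ctsc, Ctsl and Ctsh had changes of −0.16, −0.10 and −0.0045.

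With miR499 the proteases had log2 changes from −0.12 for Tpp1 to −0.55 for Ctsc. Ctsc, the dipeptidyl peptidase that activates the serine proteases of granules and carries one of the seed matches shown above, had 28.2, 33.7 and 27.2 RPKM with miR499, against 43.2, 44.4 and 43.8 RPKM in controls 4 to 6. Every miR499 library lay well below every control, and the change was −0.55 ± 0.12 (adjusted p = 0.491, limma). Ctsh, an aminopeptidase, had 16.6, 15.2 and 14.2 RPKM with miR499, against 20.2, 21.6 and 20.5 RPKM, a log2 change of −0.42 ± 0.12 with no overlap. Lgmn, Atp6v0e and Npc2, the other genes with a miR-499-5p seed match, had changes of −0.44 ± 0.27, −0.29 ± 0.26 and −0.21 ± 0.16, and their groups overlapped. Without miR499 3 these changes were −0.62, 0.02 and −0.07. With all libraries, 35 of the 45 members tested were below 0. Since only 4 of 46 members hold a match, most of these lack one in any case, and nothing is read from this. The part of seed matches in the changes was not tested. Ctsb, with the miR-184-3p match, was higher with miR184, as given above. Without miR499 3, 4 of 10 proteases fell in limma, beside 13.7% of all genes. They were Ctsc by 0.49 (adjusted p = 0.0119), Ctsh by 0.37 (adjusted p = 0.0214), Ctsb by 0.51 (adjusted p = 0.0254) and Tpp1 by 0.34 (adjusted p = 0.0304), each on the log2 scale. Summed over the proteases, levels were 755, 1010 and 866 RPKM with miR499, against 1045, 1144 and 1069 RPKM in its controls.

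Of the 7 membrane proteins, Gpnmb and Cd68 were described above. Lamp1 (chr8:13159161-13175338), a major glycoprotein of the limiting membrane, had 26.8, 41.2 and 29.3 RPKM with miR184, against 22.4, 19.3 and 19.0 RPKM in its controls, a log2 change of 0.63 ± 0.15 without overlap. Its relative Lamp2, which also serves chaperone-mediated autophagy, had a change of −0.14 ± 0.08, with 36.6, 39.5 and 34.3 RPKM against 37.0, 41.9 and 43.2 RPKM. The 2 LAMP genes thus stood on opposite sides of 0 with miR184. With miR499, Lamp1 had 105, 92.1 and 173 RPKM, against 130, 142 and 128 RPKM in controls 4 to 6, so miR499 1 and 2 lay below all controls and miR499 3 above them. Without miR499 3, the log2 level of Lamp1 fell by 0.44 (adjusted p = 0.0150, limma), as did Mcoln1, the lysosomal calcium release channel, by 0.38 (adjusted p = 0.0348, limma). Cd63, a tetraspanin of late endosomes and the most abundant member, had 591, 562 and 483 RPKM with miR184, against 563, 555 and 472 RPKM. It had 1196, 1600 and 780 RPKM with miR499, against 1526, 1493 and 1396 RPKM, and both comparisons overlapped. Npc1, which exports cholesterol from the lysosome, stayed between 3.10 and 5.0 RPKM in all 12 libraries.

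The 6 glycosidases had log2 changes from −0.03 to 0.11 with miR184. Hexa, a subunit of beta-hexosaminidase and the most abundant of them, had 186, 190 and 178 RPKM with miR184, against 167, 184 and 186 RPKM, and the groups overlapped. Gusb, beta-glucuronidase, was the glycosidase without overlap, at 57.7, 55.9 and 64.0 RPKM with miR184 against 53.8, 55.4 and 54.9 RPKM. With miR499, Hexa had 119, 147 and 152 RPKM, against 158, 168 and 163 RPKM in controls 4 to 6, with no overlap and a change of −0.23 ± 0.13. Gla, alpha-galactosidase A, had 14.9, 16.5 and 13.9 RPKM with miR499, against 19.1, 18.2 and 19.1 RPKM, a change of −0.30 ± 0.12 (adjusted p = 0.491, limma). Gaa, which degrades glycogen, lay wholly above its controls, at 7.43, 7.34 and 20.8 RPKM with miR499 against 6.50, 6.24 and 6.41 RPKM, with most of its change of 0.64 ± 0.37 in miR499 3. Without that library Glb1, the lysosomal beta-galactosidase, had a log2 change of −0.41 (adjusted p = 0.0161, limma).

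Among the 6 genes of lipid and nucleic acid handling, Psap (chr10:60277627-60302597), the precursor of the saposins that present lipids to their hydrolases, had 299, 297 and 296 RPKM with miR184, against 242, 249 and 267 RPKM in its controls. Its log2 change of 0.24 ± 0.05 was small, and the groups did not overlap. With miR499, Psap had 49.7, 41.9 and 143 RPKM, against 36.9, 44.3 and 45.8 RPKM in controls 4 to 6, so miR499 3 alone stood out. Ppt1, which removes fatty acids from proteins, had 35.1, 39.8 and 40.1 RPKM with miR499, against 48.3, 51.7 and 47.4 RPKM, a log2 change of −0.35 ± 0.11 without overlap (adjusted p = 0.491, limma). Without miR499 3, the log2 level of Ppt1 fell by 0.38 (adjusted p = 0.0188, limma) and Pld3 by 0.36 (adjusted p = 0.0324, limma). Lipa, the acid lipase, and Npc2 and Grn had miR184 changes of 0.16, −0.05 and −0.0050, all with overlap. Sqstm1, the autophagy receptor that links ubiquitinated cargo to autophagosomes, had 78.3, 89.4 and 98.7 RPKM with miR184, against 62.8, 75.6 and 73.8 RPKM, a log2 change of 0.32 ± 0.10. It had 42.5, 43.4 and 57.8 RPKM with miR499, against 55.2, 62.7 and 60.2 RPKM in controls 4 to 6. Without miR499 3, Sqstm1 fell by 0.45 on the log2 scale and had the lowest adjusted p of the members (0.0111, limma).

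The difference between the 2 changes, miR184 minus miR499, was tested in one limma fit of 12 libraries and 4 groups, in which the contrasts share no controls. No gene passed, a share of 0% of 10214 genes, and the smallest adjusted p was 0.527. Because the miR184 side of this difference was used to choose the list, the members' values in it are a description, and nothing is read from their counts or signs. At an unadjusted p under 0.05 there were 15 of 45 members (background 9.11%), 14 of them positive. Lgmn had the largest of these differences at 1.18 ± 0.33, followed by Lamp1 at 0.80 ± 0.30, and Atp6v0d1 was the negative one at −0.58 ± 0.23. Gpnmb, not among these, had a larger difference with a wider error, 1.21 ± 0.75 (unadjusted p = 0.132, limma). Leaving out miR499 3, its difference was 1.87 ± 0.53 (adjusted p = 0.0541, limma). Without miR499 3, 11 members were past the adjusted threshold (background 7.72%), all positive. They were Pld3, Sqstm1, Atp6v1c1, Lamp1, Lgmn, Tpp1, Ctsb, Glb1, Atp6v1b2, Ctsd and Atp6ap2, with differences of 0.40 to 1.36.

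Levels of most members also differed between the control libraries of the 2 tables. The ranges of controls 1 to 3 and controls 4 to 6 were apart in 36 of 46 members (78.3%), against 85.5% of all genes, so the members were no exception. The ranges were higher in controls 1 to 3 in 21 members and lower in 15. Psap averaged 252 ± 12.8 RPKM in controls 1 to 3 and 42.4 ± 4.74 RPKM in controls 4 to 6 (SD, n = 3 each). In the other direction, Lamp1 averaged 20.2 ± 1.92 RPKM in controls 1 to 3 and 133 ± 7.81 RPKM in controls 4 to 6. The library miR499 3 lay past the other 5 libraries of its own table toward controls 1 to 3 in 27 of the 36 members with ranges apart (75.0%), against 78.5% of all such genes. The median exon length was 3733 bases for the 21 members higher in controls 1 to 3, 2097 bases for the 15 lower and 3195 bases for the other 10; the part of length in this was not tested.

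**Figure D4:**
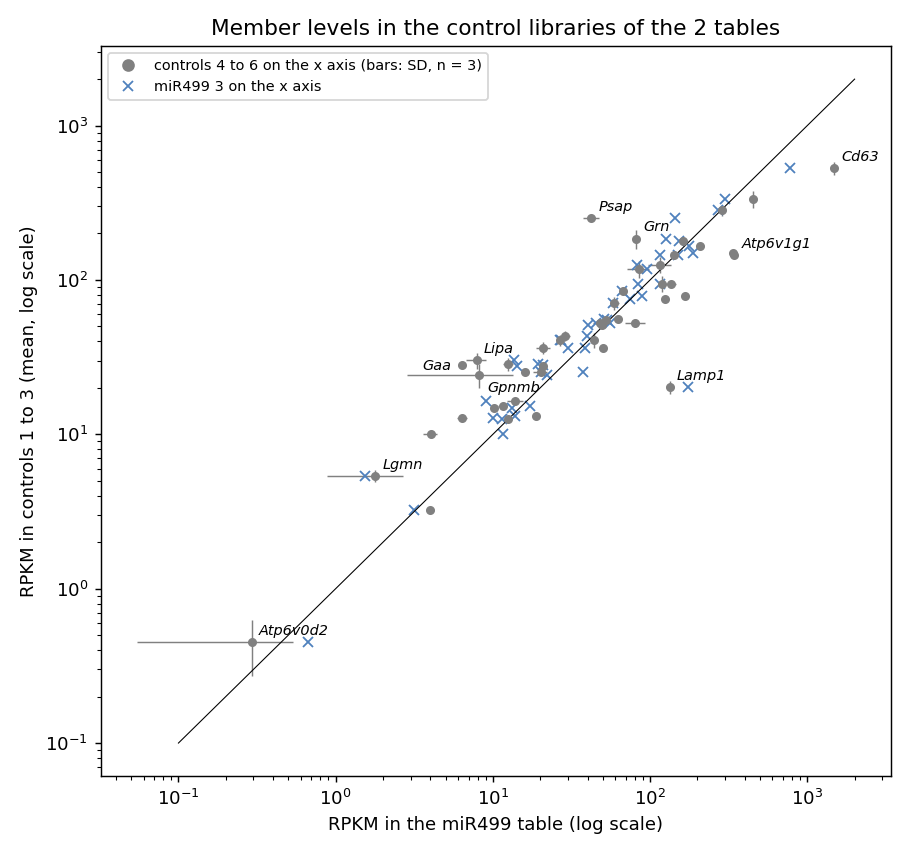
Mean RPKM of each member in controls 1 to 3 (y axis) against the miR499 table (x axis), both on log scales, with grey points for the mean of controls 4 to 6 (bars: SD, n = 3) and blue crosses for miR499 3; the line marks equal levels. Psap, Gaa, Lipa, Gpnmb and Lgmn lie above the line and Lamp1 and Cd63 below it, and many crosses lie nearer the line than the grey points.

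Controls 4 to 6 also varied among themselves in some members. Gpnmb had 2.81, 13.4 and 8.19 RPKM in controls 4, 5 and 6, and Lgmn had 1.01, 2.76 and 1.56 RPKM. The coefficient of variation was 65.0% for Gpnmb and 50.3% for Lgmn in controls 4 to 6, whereas it was 17.4% and 8.74% in controls 1 to 3. Besides Gpnmb, 20 members ranked these 3 controls in the order of Gpnmb, with control 4 lowest and control 5 highest, among them Cd68, Ctsb, Ctsd, Lgmn and Pld3. With Gpnmb, this order was seen in 45.7% of the members and in 22.1% of all genes. Across the 12 libraries, 15 members averaged at least 100 RPKM and 5 averaged under 10 RPKM, and the range of means ran from 0.808 RPKM for Atp6v0d2 to 935 RPKM for Cd63.

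The CACGTG element was counted in the promoters of the members. This element is known from lysosomal genes, as said above, and the members were chosen by name as lysosomal genes. Its shares are therefore a description of the sequences and test nothing. RefSeq promoters of 300 bases, from 250 before to 50 after the start on GRCm38.p6, were matched for 38 of 46 members, and CACGTG, which reads the same on both strands, was found in 13 (34.2%). The share was 12.3% of 7849 expressed genes and 8.09% of all 27025 genes in the table of promoters. The longer form TCACGTG, searched on both strands and overlapping the first, was found in 12 (31.6%), against 7.47% of expressed genes. The palindrome TCACGTGA was found in 7 (18.4%), against 2.37% of expressed genes. The 13 members were Atp6v0d1, Atp6v0b, Atp6v0e, Atp6v1a, Ctsa, Ctsd, Ctsl, Lgmn, Lamp1, Mcoln1, Gaa, Gla and Glb1. Gpnmb, Pld3 and Cd68 held none in this window. The promoters of Lamp1, with 4 matches, of Ctsd, with 2, and of Gpnmb, with 0, are shown to compare members that were higher with miR184; capitals mark CACGTG with a flanking T or A where it extends the element. They lie at chr8:13158911-13159210 (plus strand), chr7:142387778-142388077 (minus strand) and chr6:49036268-49036567 (plus strand).
Lamp1: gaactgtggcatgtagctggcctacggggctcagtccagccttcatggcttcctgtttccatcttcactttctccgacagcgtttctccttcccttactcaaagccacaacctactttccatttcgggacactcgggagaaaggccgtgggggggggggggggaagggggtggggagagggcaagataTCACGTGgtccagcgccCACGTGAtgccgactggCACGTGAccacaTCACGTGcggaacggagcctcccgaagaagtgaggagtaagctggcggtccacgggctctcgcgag
Ctsd: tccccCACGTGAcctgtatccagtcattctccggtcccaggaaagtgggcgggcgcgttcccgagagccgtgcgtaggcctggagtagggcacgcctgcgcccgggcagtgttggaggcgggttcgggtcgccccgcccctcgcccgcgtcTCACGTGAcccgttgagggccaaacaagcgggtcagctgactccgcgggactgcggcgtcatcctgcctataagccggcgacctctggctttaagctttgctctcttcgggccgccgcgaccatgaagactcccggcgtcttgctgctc
Gpnmb: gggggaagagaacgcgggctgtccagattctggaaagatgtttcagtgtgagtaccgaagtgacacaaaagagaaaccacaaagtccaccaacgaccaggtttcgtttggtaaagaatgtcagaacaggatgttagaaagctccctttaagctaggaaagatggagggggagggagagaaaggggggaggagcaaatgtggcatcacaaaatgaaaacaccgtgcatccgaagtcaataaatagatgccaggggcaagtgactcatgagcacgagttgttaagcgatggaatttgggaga

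The elements in the Lamp1 promoter begin 61, 45, 28 and 15 bases before the start.

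Other genes of the pathway, taken from lists that do not overlap the members, lay on both sides of their controls with miR184. Of 35 other lysosomal enzymes and activators tested, 21 were higher (background 50.6%), 2 at an unadjusted p under 0.05 (background 3.63%). These were Sgsh, a heparan sulfate sulfatase, at 4.20, 4.14 and 5.37 RPKM with miR184 against 3.45, 2.92 and 3.04 RPKM, and Galns, a keratan sulfate sulfatase, at 13.1, 14.2 and 15 RPKM against 12.1, 11.8 and 12.9 RPKM. Of 19 other membrane proteins and transporters tested, 8 were higher. Slc11a1, the phagosomal metal transporter of macrophages, had 8.25, 9.50 and 7.07 RPKM with miR184, against 4.89, 5.42 and 5.62 RPKM, a log2 change of 0.55 ± 0.11 without overlap. Of 16 autophagy core genes, 6 were higher, and of the 4 MiT/TFE factors 2 were higher, with Tfeb at 4.05, 3.99 and 3.16 RPKM with miR184 against 3.69, 3.81 and 4.30 RPKM. The median log2 changes of these 4 lists were 0.03, −0.0030, −0.01 and −0.02. No gene of these lists passed the adjusted threshold.

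With miR499, 15 of 35 other enzymes were lower (background 50.9%) and 20 higher (background 49.1%). The lower ones included Asah1, acid ceramidase, at 39.3, 39.1 and 50.2 RPKM with miR499 against 57.5, 57.6 and 62.0 RPKM in controls 4 to 6. Its log2 change was −0.46 ± 0.14, without overlap. Without miR499 3, 25 of 35 other enzymes were below 0 and 8 fell at an adjusted p under 0.05 in limma, with 0 that rose, beside 58.7%, 13.7% and 3.47% of all genes. Of 16 autophagy core genes, 8 were lower, among them Becn1, a subunit of the lipid kinase that starts autophagosomes, at −0.33 ± 0.11, and 3 of the 16 fell without miR499 3, beside 13.7% of all genes. Of 7 enzyme sorting genes tested, 5 were higher and 2 lower with miR499, with a median log2 change of 0.51. In each of the higher ones, miR499 3 was the highest library of its table. Gga1, an adaptor that loads hydrolase receptors at the Golgi, had 5.52, 3.91 and 14 RPKM with miR499, against 2.98, 2.93 and 3.02 RPKM, without overlap. In the other direction, M6pr, which carries hydrolases to the lysosome, had 60.4, 57.4 and 80.2 RPKM with miR499, against 83.4, 86.7 and 83.3 RPKM. The log2 changes of Gga1 and M6pr were 0.98 ± 0.39 and −0.37 ± 0.15. All 3 other V-ATPase subunits tested were above 0 with miR499, with a median of 0.42 and overlapping groups. The median was that of Atp6v0a2, at 3.27, 3.10 and 8.40 RPKM with miR499 against 2.98, 3.18 and 3.14 RPKM. Its change therefore rested on miR499 3.

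Markers of other cell types that express lysosomal genes strongly were read beside these values. Of 14 macrophage markers measured, 7 were under 1 RPKM in all libraries, among them Mrc1, Mertk and Vsig4. The summed macrophage markers were 2240 to 2360 RPKM with miR184, against 2190 to 2480 RPKM in its controls, and 1770 to 2030 RPKM with miR499, against 2370 to 3050 RPKM in its controls; Lyz2, which myeloid progenitors also express, made up most of both. The osteoclast marker Calcr was listed at 0 in all 12 libraries, 6 of 9 osteoclast markers were under 1 RPKM in all, and the list summed to 25.3 to 27.9 RPKM with miR184 against 24.8 to 27.1 RPKM. Itgb3 and Nfatc1 made up most of that sum. Ctsk, the osteoclast cathepsin, had 0.460, 0.706 and 0.952 RPKM with miR184, against 0.170, 0.276 and 0.274 RPKM in its controls. Other osteoclast markers went both ways. Of 3 that reached the level for the test, 1 was higher and 2 lower with miR184. The higher one, Itgb3, lay just above its controls, at 14.9, 13.8 and 14.5 RPKM against 12.3, 13.6 and 13.7 RPKM. Acp5, 1 of the lower ones, had 1.31, 1.64 and 0.749 RPKM, against 1.48, 2.37 and 1.27 RPKM. The 9 dendritic cell markers summed to 427 to 498 RPKM with miR184, against 293 to 375 RPKM, with no overlap, and to 107 to 121 RPKM with miR499, against 76.4 to 143 RPKM. Cd74, H2-Ab1, H2-Aa and H2-Eb1 made up most of the miR184 sum. Each lay wholly above controls 1 to 3, as did Ciita at a much lower level. Cd74 had 217, 211 and 252 RPKM, against 149, 140 and 181 RPKM. The markers Flt3, Siglech, Itgax and Xcr1 overlapped their controls with miR184. The neutrophil markers summed to 7890 to 9000 RPKM with miR184, against 7790 to 8910 RPKM, and to 6640 to 10700 RPKM with miR499, against 6620 to 7960 RPKM. Of 10 neutrophil markers tested with miR499, S100a8 and S100a9 lay wholly above controls 4 to 6 (background 11.4%). Another 3, Ngp, Camp and Mmp8, lay wholly below (background 12.8%). The mast cell and basophil markers summed to 766 to 1110 RPKM with miR184, against 685 to 872 RPKM, and to 1160 to 2970 RPKM with miR499, against 2040 to 2400 RPKM. The eosinophil markers summed to 55.9 to 218 RPKM with miR184, against 27.5 to 180 RPKM, and to 29.4 to 228 RPKM with miR499, against 223 to 452 RPKM. The erythroid markers summed to 22.8 to 23.4 RPKM with miR184, against 17.8 to 21.2 RPKM, without overlap, and to 9.52 to 28.4 RPKM with miR499, against 9.40 to 12.2 RPKM. The summed megakaryocyte markers, mostly Pf4, overlapped in both comparisons. They were 614 to 688 RPKM with miR184 against 575 to 643 RPKM, and 1140 to 1720 RPKM with miR499 against 1040 to 1770 RPKM. Of 7 tested, 2 lay wholly above controls 1 to 3 with miR184 (background 7.30%) and 0 below. These were Gp9 and Gp1bb, the latter at 7.59, 8.1 and 7.48 RPKM against 4.48, 1.77 and 2.06 RPKM. With miR499, 1 lay wholly above controls 4 to 6 (background 11.4%) and 0 below. The 12 HSPC markers summed to 640 to 692 RPKM with miR184, against 664 to 773 RPKM, and to 541 to 549 RPKM with miR499, against 596 to 660 RPKM. Single HSPC markers went both ways with miR499. Cd48, the largest part of these sums, had 270, 288 and 167 RPKM, against 336, 304 and 325 RPKM. Kit had 14.1, 10.7 and 34.3 RPKM, against 9.24, 9.15 and 8.17 RPKM. Of 11 HSPC markers tested, 4 lay wholly above controls 4 to 6 (background 11.4%) and 2 wholly below (background 12.8%). The part of these cell types in the lysosomal values was not tested.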

How the data were processed

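Total RNA of sorted bone marrow HSPC was extracted with a PicoPure kit, per the labels' protocols, and groups and replicate numbers came from the sample titles. The authors deposited 2 tables of RPKM values, per the file headers, each with 48709 genes and 6 libraries; the genome build is mm10 in the submitters' processing notes. Aligner, counter, annotation and strandedness were not given in the sources used here. The number of per-sample columns left unused was 0.

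The members and gene lists were chosen with earlier results of these data known. Members were named by role: values in every library for the 4 genes that chose the list, the members with the lowest unadjusted p, those without overlap in both comparisons, d1 beside d2, and the most abundant member of each role.

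Whole reads were recovered for all 21134 genes above 0, and 100% of 197027 values came out whole within 0.01 reads; these reads were used for totals and for limma voom as an alternative, which passed 0 genes in either table. Treated libraries were set against the 3 controls of the same table by limma 3.58.1 in R 4.3.3 (intensity trend, two-sided) on log2(RPKM + 1), for genes with a mean of at least 1 RPKM, with Benjamini-Hochberg adjustment over all genes tested and a threshold of 0.05. The form of the test planned for tables without counts was used. With 3 libraries a side, the smallest exact permutation p is 0.1. The fits were first tested on simulated data. A count of 0 allows up to 3 reads, which covers counting error only. Replicate numbers did not pair the libraries: same-numbered miR184 and control deviations correlated at 0.0622, −0.0485 and −0.0283. Alternatives covered scaling, filter, pseudocount, voom, array weights, a joint fit of both tables, blocking by replicate number and omission of each library. Other steps ran in Python 3.11.15 (pandas 2.3.3, numpy 2.4.6; figures by matplotlib 3.10.9).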

Additional observations from a re-analysis of the deposited data

How the results depend on the processing

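Leaving out each library in turn passed 0 to 2 genes and 0 members with miR184, 0 to 1681 genes and 0 to 15 members with miR499, and 0 to 789 genes and 0 to 11 members for the difference between the 2 miRNAs. The counts of 1681 and 789 genes came without miR499 3, that of 2 without control 1, which also gave 1 gene for the difference. Over the same fits 27 to 34 members were higher with miR184, with medians of 0.02 to 0.07, and 7 to 15 were higher with miR499, with medians of −0.28 to −0.14. Median-ratio scaling together with leaving out miR499 3 passed 1376 genes and 12 members with miR499. Array weights in limma passed 167 genes and 7 members with miR184, 7169 genes and 38 members with miR499 (with 6 members higher) and 5439 genes and 34 members for the difference, but the miR499 weights ran from 0.0276 to 174, and the weights did not converge. A replicate block by the numbers of the titles passed 2 genes with miR184, of which 1 member, Gpnmb; since the numbers do not pair these libraries, this is not read further. No paired analysis was possible for miR499 because its titles share no replicate numbers with controls 4 to 6. Scaling alone, the pseudocount, the filter, voom and the fit of all 12 libraries left 0 genes passing in the miR184 and miR499 comparisons. Of single members, none of which passed with all libraries, 18 with miR184 and 15 with miR499 had a change of the other sign in at least 1 alternative. Without miR499 3 these were Gpnmb (−0.44), Neu1 (−0.22), Grn (−0.19) and Lipa (−0.01), which lay above 0 with all libraries, and Atp6v0e (0.02), which lay below. The fewest reads lay behind Atp6v0d2, with 5 to 308 per library, and Lgmn, with 61 to 1144.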
